A study of Rattus norvegicus with 8 samples.

Results

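The genes described here mark the steps by which a stem cell of the dentate gyrus (DG) becomes a granule cell, and the identity of that cell. They are Prox1, Neurod1, Dcx, Sox11, Sox2, Eomes, Tbr1, Reln and Dsp, 9 gene names chosen for their known roles and looked up among the non-control spots of the arrays. A spot with the name was found for 8 of the 9 genes, on 11 of 43379 non-control spots, and no spot carried the name Eomes. Total RNA came from the DG of adult female Sprague-Dawley rats weighing 150–200 g, all ovariectomized and all taken through status epilepticus (SE), a prolonged seizure, with kainic acid. The oil-treated rats with SE (COS, n = 4) received the vehicle. The rats with SE and replacement of β-estradiol (E2) (CES, n = 4) received 4 doses of 2 μg of β-estradiol benzoate at intervals of 24 h. The sample records place part of these doses before and part after SE, give 16 mg/kg of kainic acid, and say that pentobarbital ended SE after 5 h. The study's methods differ from these records on the kainic acid dose, the way SE was ended, the timing of the E2 doses and the time of tissue collection, and nothing in the files decides between them. The question addressed is how the DG transcriptome after SE differed between rats with and without E2 replacement, since rats without SE were not analysed here.

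In the adult DG, radial glia-like stem cells that carry Sox2 divide and give rise to progenitors that carry Eomes, then to neuroblasts that carry Neurod1 and Dcx, and finally to granule neurons that keep Prox1. Seizures are known to increase the division of these progenitors and to disturb the layering of the granule cells. Reln, the secreted protein reelin that guides neuronal position, is made in the DG by interneurons and by Cajal-Retzius cells. The whole DG was used, so that fewer cells of a type and less RNA per cell cannot be told apart.

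The probes of the members that the comparison turns on are shown here, because everything measured is hybridization to these sequences. Each probe has 60 bases, of which the first 30 are printed 5′ to 3′ in lower case, with no part singled out. Where more than 1 probe carried a gene name, the probes are numbered.
Prox1: actacaacaaagcaaacgactttgaggttc
Neurod1: atatgtatttattgtcgttactgcctttgg
Dcx: aaaggcagtgtttcaagaagacactctctt
Sox11: ccgaggatgccgacgacctcatgttcgacc
Dsp probe 1: cgttgaattgggaatttacttcctccatat
Dsp probe 2: ttcccgtagtgggtctcgaagaggaagctt
On the rat build rn4, as given in the files, the Neurod1 probe lies at chr3:62225107-62225166 on the minus strand and the Sox11 probe at chr6:45142098-45142157 on the minus strand. The Dsp probes lie at chr17:32848676-32848735 and chr17:32848997-32849056 on the minus strand. The Prox1 probe is placed at chr13:106423135-106447119 on the minus strand, a span of 23985 bases for a probe of 60, so its bases come from separate stretches of the gene. The Dcx probe has no position in the files. The G and C content ran from 35% in Dsp probe 1 and in Reln probe 1 to 60% in Sox11.

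Detection was read first, as the scanner software's mark for a spot well above its local background. Neurod1, Dcx, Sox2 and both Reln probes were well above background in 8 of 8 rats, with a signal between 23.5 and 194 times the local background. Prox1, the homeobox factor that defines granule cells, was well above background in 0 of 8 rats, and its signal was between 1.78 and 2.72 times background. Tbr1, a T-box factor of glutamatergic neurons, was well above background on probe 1 in 0 of 8 rats and on probe 2 in 1 rat, CES replicate 2. Sox11, a transcription factor of immature neurons, and both probes of Dsp, the desmosomal protein desmoplakin that is enriched in granule cells, were well above background in 3 of 4 COS and 2 of 4 CES rats. For Sox11 and for each Dsp probe, these were all 4 rats labeled with Cy5 and 1 of the 4 labeled with Cy3, so detection of these genes went with the dye, which was balanced between the groups. Of the 8 members with a spot, 6, 6, 4 and 6 were well above background in COS replicates 1 to 4, and 4, 7, 4 and 6 in CES replicates 1 to 4.

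**Figure D1:**
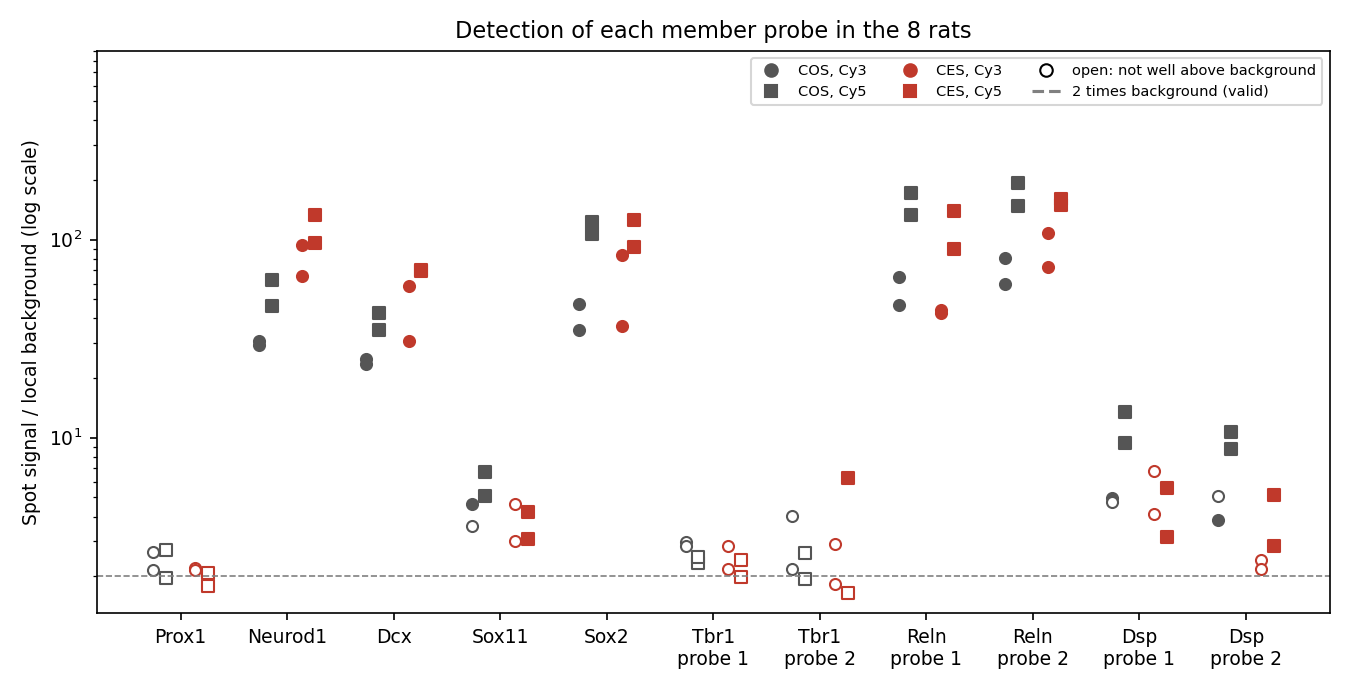
Signal of each member probe over its local background (log axis) in each of the 8 rats, with circles for Cy3, squares for Cy5 and open symbols for spots not well above background. All Prox1 points are open and lie between 1.78 and 2.72, whereas Neurod1, Dcx, Sox2 and Reln lie at 23.5 or above.

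The Prox1 and Tbr1 spots were near the floor of the arrays and gave no level in all 8 rats. In COS replicates 1 to 4 the Prox1 signal was 2.15, 2.72, 2.66 and 1.95 times background, and in CES replicates 1 to 4 it was 2.19, 1.78, 2.14 and 2.07 times background. The groups overlapped, and 1 rat of each group fell under the 2 times background that the study's methods require of a valid spot. Tbr1 probe 1 gave 2.96, 2.32, 2.85 and 2.51 times background in COS and 2.17, 2.42, 2.84 and 1.99 in CES. Tbr1 probe 2 gave 4.04, 2.61, 2.17 and 1.93 times background in COS and 2.90, 6.27, 1.82 and 1.64 in CES. The value of CES replicate 2 was the highest of the 8 and the other CES values lay within or below the COS range. With 1 of 8 rats above background on 1 of its probes, Tbr1 gave no fold. Without the filter on valid spots, the difference CES minus COS was −0.25 for Prox1 (adjusted p = 0.633) and 0.11 for Tbr1 (adjusted p = 0.891) on the log2 scale by limma, on spots mostly not well above background.

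The remaining 6 members were valid in all 8 rats and belong to the 21372 gene names quantified in all rats, out of 35250 on the array. Their levels are background-subtracted signals relative to the median valid spot of the same channel, averaged per gene, on the log2 scale, so that levels of different genes cannot be compared. A difference is called where limma's p, adjusted by Benjamini-Hochberg over all 21372 names, is under 0.05. Called higher in CES were 2 of the 6 members, Neurod1 and Dcx, beside 5.79% of all genes. Called lower in CES were 2 of the 6, Sox11 and Dsp, beside 28.3% of all genes, so that the count of falls was near that of any genes. Sox2 and Reln were not called. The median difference over all genes was −0.25 on the log2 scale and it was 0.055 after loess and Aquantile normalization, where 61.6% of the calls were higher in CES, against 17.0% without it. Differences relative to that median are therefore given as well. After that normalization, which called 14.2% of all genes higher and 8.87% lower, Neurod1 and Dcx were called higher, Dsp was called lower and Sox11 was not called. CES replicate 2 stood apart from the other CES rats for several genes named here. Without it the calls of all 4 genes held, with differences of 1.29 for Neurod1, 0.81 for Dcx, −0.74 for Sox11 and −1.33 for Dsp. Without COS replicate 3 the Neurod1 call held (adjusted p = 0.0474 by limma). The calls of Dcx (0.0627), Sox11 (0.0962) and Dsp (0.0575) were then lost.

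Neurod1 and Dcx, which mark neuroblasts and immature granule neurons, rose. Neurod1, a basic helix-loop-helix factor needed for granule cells to form, had log2 levels of 2.32, 1.56, 2.84 and 1.89 in COS replicates 1 to 4 and of 3.71, 2.60, 3.62 and 3.31 in CES replicates 1 to 4. All CES rats but replicate 2 were above every COS rat, and CES replicate 2 lay below COS replicate 3, which carried the other dye. The means were 2.15 ± 0.55 and 3.31 ± 0.50 (SD, n = 4), a difference of 1.16 (SE 0.21), which is 2.24-fold and 1.41 above the median of all genes, with an adjusted p of 0.00515 by limma. The difference was 1.09 within Cy3 and 1.23 within Cy5. The call was lost after normexp background correction (adjusted p = 0.0568) and with the methods' t-test adjusted in the same way (adjusted p = 0.113), an adjustment over all genes that the methods do not make, within a range from 5.69e-05 to 0.113 over 23 alternatives.

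Dcx, the microtubule-binding protein doublecortin of migrating neuroblasts, had log2 levels of 2.08, 1.22, 2.27 and 1.45 in COS and of 2.60, 1.94, 2.89 and 2.50 in CES. The groups overlapped only through CES replicate 2, which lay below COS replicates 1 and 3. The means were 1.76 ± 0.50 and 2.48 ± 0.40 (SD, n = 4), a difference of 0.73 (SE 0.19), 1.66-fold and 0.98 above the median of all genes, with an adjusted p of 0.0164 by limma. Within Cy3 the difference was 0.57 and within Cy5 it was 0.89. The call was lost without COS replicate 1 (adjusted p = 0.0538), 2 (0.0502) or 3 (0.0627), after normexp (0.265) and with the methods' t-test adjusted in the same way (0.201), among 23 alternatives ranging from 0.00162 to 0.265.

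Both genes are also transcribed outside the DG in other hippocampal neurons, and markers of CA1 and subiculum pyramidal neurons moved with them. Of 6 such markers, all quantified, 4 were called higher and 0 lower in CES, namely Pou3f1 (2.23), Mpped1 (1.21) and Wfs1 (0.98) on the log2 scale, and Fibcd1, which is given without a fold because it was well above background in 0 of 4 COS and 2 of 4 CES rats. The list's median was 0.98. Their summed log2 level was 4.28 to 4.88 in COS and 5.06 to 5.63 in CES, without overlap. In this and the other summed levels the brightest markers weigh most. Of 5 CA3 markers, 2 were called higher and 0 lower, with summed log2 levels of 8.36 to 9.16 in COS and 7.89 to 8.78 in CES. The part of these cells in the Neurod1 and Dcx values was not tested. Of the granule cell markers besides Prox1, Tdo2 was well above background in 0 of 8 rats, and C1ql2 and Calb1 in 8 of 8. The summed log2 level of the 4 quantified granule cell markers, which include the member Dsp and Tdo2, was 3.65 to 4.48 in COS and 3.14 to 3.68 in CES. Of these markers Calb1 was not called, and only Dsp was called, as lower, after loess and Aquantile normalization.

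**Figure D2:**
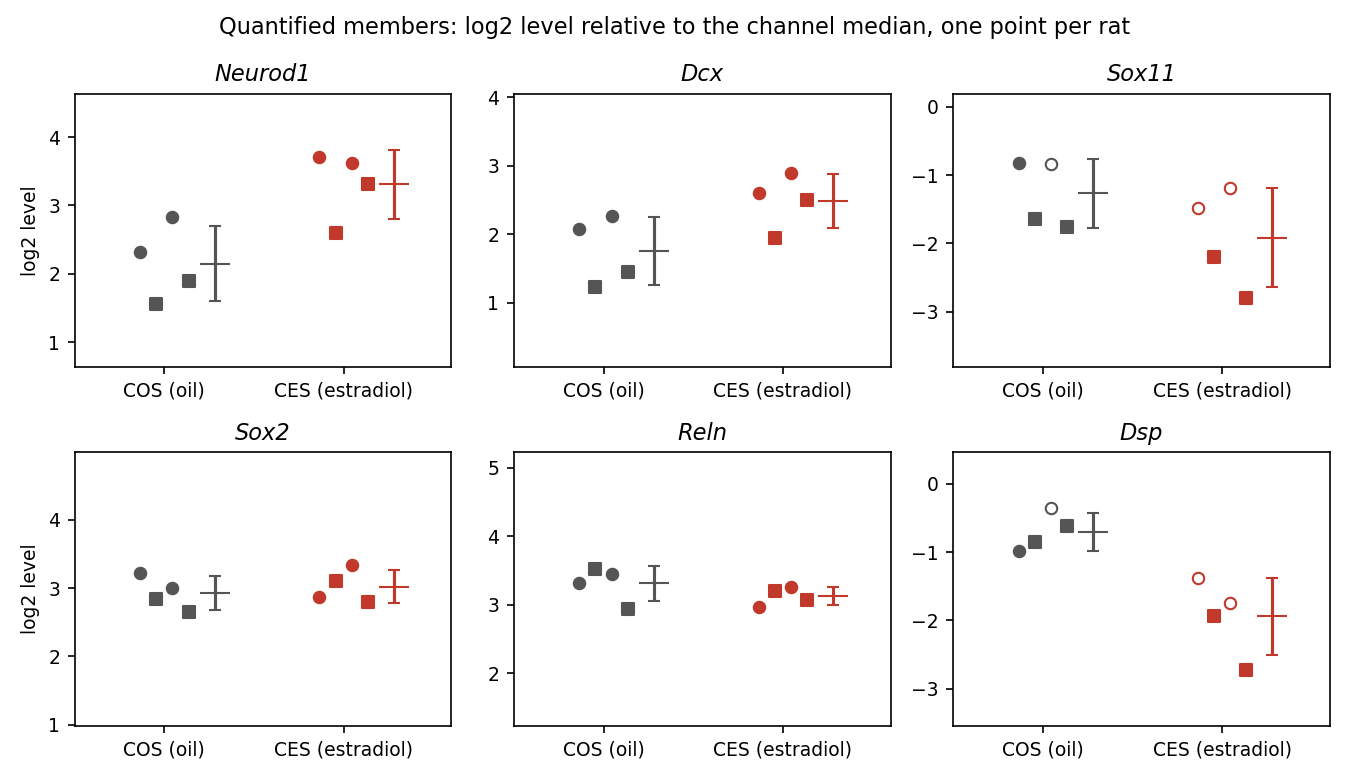
Log2 level of the 6 quantified members in each rat (circles Cy3, squares Cy5, open symbols not well above background), with the mean and SD of the 4 COS and the 4 CES rats. Neurod1 and Dcx have higher CES means, with CES replicate 2 (Cy5) above both Cy5 COS rats and below COS replicate 3 (Cy3), Dsp is lower in every CES rat than in any COS rat, and Sox2 and Reln overlap.

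Dsp was the only member whose 4 CES and 4 COS values did not overlap, and it fell. This happened for 19.8% of all genes with CES below COS and for 1.61% with CES above COS. Its log2 levels were −0.99, −0.85, −0.36 and −0.62 in COS replicates 1 to 4 and −1.37, −1.93, −1.74 and −2.72 in CES replicates 1 to 4. Every CES rat lay below every COS rat, with CES replicate 4 the lowest. The means were −0.71 ± 0.28 and −1.94 ± 0.57 (SD, n = 4), a difference of −1.24 (SE 0.25), which is 2.35-fold lower and stands at −0.98 once the all-gene median is subtracted, with an adjusted p of 0.00699 by limma. Its probes printed above gave −1.10 and −1.41, and the difference was −0.89 within Cy3 and −1.59 within Cy5. Only 5 of the 8 rats had the spots well above background. The call was lost in 6 of 22 alternatives, among them a foreground of at least 3 times background (adjusted p = 0.063), scaling on the spots valid in all rats (0.0744), the deposited log2 table (0.0607) and leaving out COS replicate 3 (0.0575), over a range from 0.00263 to 0.346.

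Sox11 fell by less and its call depended on the processing. Its log2 levels were −0.83, −1.65, −0.84 and −1.76 in COS and −1.47, −2.20, −1.20 and −2.79 in CES, in which the Cy3 rats, replicates 1 and 3, were the higher ones in both groups. Within each dye the CES rats lay below the COS rats, by −0.50 for Cy3 and −0.79 for Cy5, whereas the groups overlapped across dyes. The means were −1.27 ± 0.51 and −1.91 ± 0.72 (SD, n = 4), a difference of −0.65 (SE 0.18), or −0.39 once the all-gene median is subtracted, with an adjusted p of 0.0235 by limma. The call held in 8 of 22 alternatives, the adjusted p ranged from 0.0107 to 0.795, and it was lost without COS replicate 1 (0.0633), 2 (0.0635), 3 (0.0962) or 4 (0.0754) or CES replicate 1 (0.0881). After loess and Aquantile normalization the difference was −0.39 (adjusted p = 0.125).

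Sox2, the transcription factor that stem cells and astrocytes share, had log2 levels of 3.22, 2.84, 3.00 and 2.64 in COS and 2.87, 3.10, 3.33 and 2.79 in CES. The groups overlapped over nearly their whole range. The difference was 0.093 (SE 0.18, adjusted p = 0.711 by limma) with a 95% interval from −0.30 to 0.49, and 0.35 above the median of all genes, and its sign turned with the scanner software's processed signal (−0.25).

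Reln had log2 levels of 3.32, 3.53, 3.45 and 2.94 in COS and 2.96, 3.21, 3.26 and 3.07 in CES. The values overlapped, with COS replicate 4 the lowest of all. The difference was −0.19 (SE 0.18, adjusted p = 0.453 by limma) with a 95% interval from −0.59 to 0.22, stood at 0.068 once the all-gene median was subtracted, and turned to 0.15 after loess and Aquantile normalization. Its probes, at chr4:8608768-8608827 and chr4:8609026-8609085 on the plus strand, gave −0.18 and −0.19. No Cajal-Retzius marker was quantified. The interneuron markers are a general list of GABAergic cells that was not limited to those making reelin. Of 7 quantified, 0 were called higher and 3 lower in CES, namely Npy (−1.84), Sst (−1.56) and Vip (−1.06). Gad1 (−0.57), Gad2 (−0.58), Slc32a1 (−0.33) and Pvalb (0.51) were not called. With loess and Aquantile the calls were 1 higher, Pvalb (0.86), and 2 lower, Sst (−1.23) and Vip (−0.76). The summed log2 level of the interneuron markers, in which the brightest weigh most, was 8.50 to 9.15 in COS and 6.89 to 8.32 in CES. The part of these cells in the Reln values was not tested.

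The ratio of a pair of members within a rat does not depend on how its channel was scaled. Of the 15 pairs that the 6 quantified members form, 7 gave ratios that did not overlap between the groups. The pairs share genes and the share among pairs of all genes was not computed, so this count is no result about the members. The log2 ratio of Neurod1 to Dsp was 3.31, 2.41, 3.19 and 2.51 in COS and 5.09, 4.53, 5.36 and 6.03 in CES, a difference of 2.40. The ratio of Neurod1 to Dcx, both called higher, also moved apart, from 0.24, 0.34, 0.57 and 0.44 in COS to 1.11, 0.66, 0.73 and 0.81 in CES, a difference of 0.43. Neurod1 and Dcx, which overlapped between groups when taken singly, did not overlap when set against Sox11 or Dsp in the same rat, with differences from 1.37 to 2.40. Since Neurod1 and Dcx were called higher and Sox11 and Dsp lower in these same rats, the larger differences follow from those calls and add no support to them. The other pairs without overlap were Neurod1 to Reln (1.35) and Sox2 to Dsp (1.33). Each of the 7 had the smallest p that an exact two-sided permutation test of 4 against 4 rats can give, 0.0286, and an adjusted p of 0.0613 over the 15 pairs, so none passed the threshold. The test treats all rats as exchangeable, although rats of the same group shared arrays and differed in dye, so these p-values are only a guide.

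**Figure D3:**
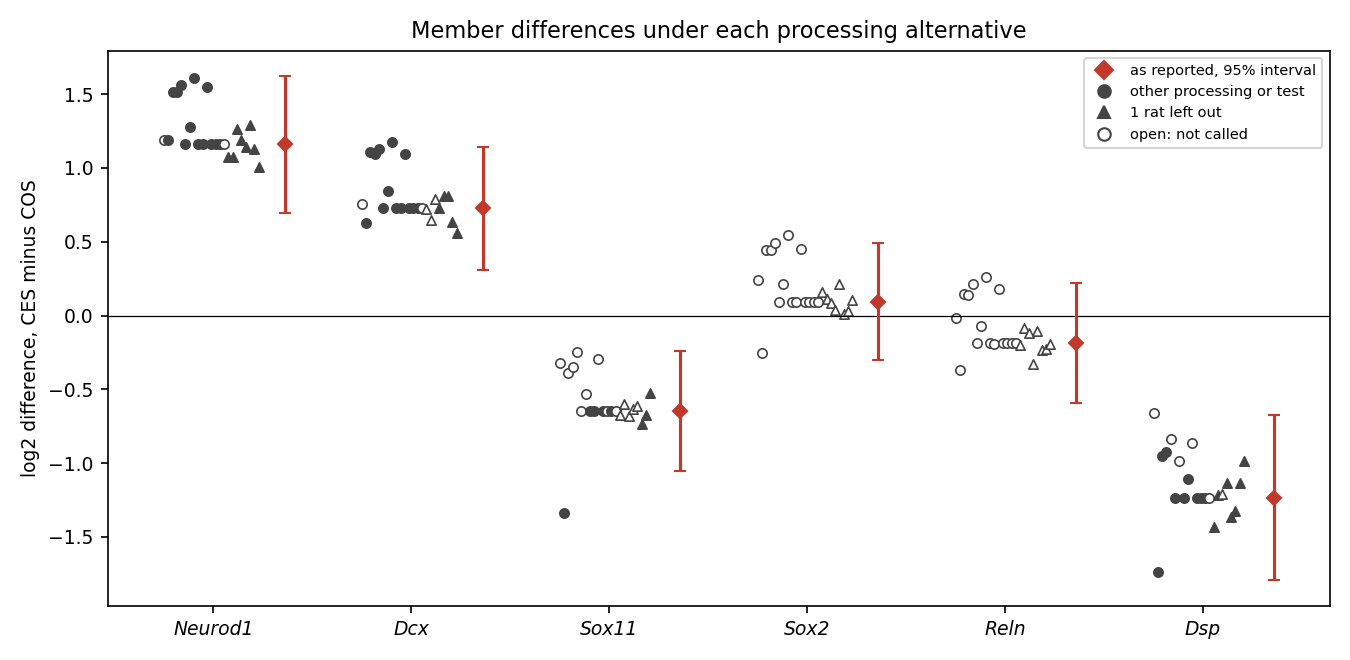
Log2 difference CES minus COS of each quantified member as reported (diamond, with its 95% interval) and under each alternative (circles for other processing or tests, triangles for 1 rat left out, open where not called). Neurod1 and Dcx stay above 0 and Sox11 and Dsp below 0 under every alternative shown, while Sox2 and Reln lie on both sides of 0.

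Genes of the same lineage were described by lists whose counts stand beside the 5.79% of all genes called higher and the 28.3% called lower. Of 13 quantified stem cell and radial glia genes, 2 were called higher and 5 lower, with a median difference of −0.38. The largest falls were those of the intermediate filament genes Vim (−2.76) and Nes (−2.51) and of Hopx (−1.86), a marker of quiescent stem cells, and the rises were those of the Notch target Hes5 (2.43) and of Prom1 (1.07). Hes5 was well above background in 2 of 4 COS and 4 of 4 CES rats. With loess and Aquantile, the 2 calls in the higher direction were again Hes5 and Prom1 and the 2 in the lower Nes and Hopx, while Vim was not called (adjusted p = 0.0633 by limma). Hopx had log2 levels of 5.48, 5.54, 5.53 and 5.56 in COS and of 3.34, 4.03, 3.72 and 3.60 in CES. The COS rats lay within a narrow band that no CES rat reached. Nes had levels of 4.31, 4.21, 4.19 and 3.82 in COS and 1.02, 3.30, 1.54 and 0.62 in CES, where replicate 2 stood above the other CES rats. Vim, Nes and Hes5 are also expressed by astrocytes, for which 2 of 5 markers were called higher, Gja1 (1.27) and Aldh1l1 (1.23), and 0 lower. Aqp4 (0.039), Slc1a2 (0.31) and Gfap (−1.19, adjusted p = 0.0618 by limma) were not called. With loess and Aquantile, Aldh1l1 (1.58) and Slc1a2 (0.63) were called higher and Gja1 was not called (adjusted p = 0.064 by limma). Gfap is also in the stem cell list, and its difference had the sign of those of Vim and Nes. The summed log2 levels were 6.27 to 6.64 in COS and 6.17 to 6.97 in CES, and the part of those cells was not tested.

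Of 8 quantified genes of proliferating progenitors, 0 were called higher and 5 lower, with a median difference of −1.48. They were the replication and cell cycle genes Mcm6 (−2.07), Cdk1 (−1.98), Mcm2 (−1.85), Ccnb1 and Pcna. Mcm6 was well above background in 4 of 4 COS and 2 of 4 CES rats. CES replicate 2 stood apart in these genes, with a Cdk1 level of 1.97 against −1.04, −0.12 and −0.79 in the other CES rats and 2.45, 1.29, 2.82 and 1.42 in COS. Without it the difference was −2.77 for Cdk1 (adjusted p = 6.25e-05 by limma) and −2.64 for Mcm6. The Cdk1 call was lost in 13 of 23 alternatives, among them without COS replicate 3 (adjusted p = 0.205 by limma) or CES replicate 1 (0.146). The Mcm6 call was lost in 4, among them without COS replicate 3 (0.0719). The marker Mki67 had no spot of that name. After loess and Aquantile normalization only Mcm2 was called lower (−1.50), the differences of Mcm6 (−1.70, adjusted p = 0.0537 by limma), Cdk1 (−1.60), Ccnb1 (−0.96) and Pcna (−0.90) kept their sign without being called, and Ccnd2, which encodes a cyclin of dividing progenitors, was called higher (0.55). Microglia and endothelium also divide after seizures, and of their markers 2 of 5 and 2 of 4 were called lower, with 1 microglial marker higher. Their calls after loess and Aquantile normalization were 0 lower and 1 higher for microglia, and 1 lower and 0 higher for endothelium. The summed log2 levels were 4.82 to 5.38 in COS and 4.57 to 5.07 in CES for microglia and 4.03 to 4.42 and 3.59 to 4.10 for endothelium, and their part in the count was not tested.

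Immature neuron genes moved both ways. Of 17 quantified, 6 were called higher and 4 lower, with a median difference of 0.35, and with loess and Aquantile the calls were 8 higher and 2 lower, the latter Sox4 and Marcksl1. The rises were led by Neurod6 (1.90) and Neurod2 (1.11), relatives of Neurod1, and by the transcription factor Bcl11b (1.39), all of which pyramidal neurons express as well. The falls were led by Sox4 (−1.60), which acts with Sox11, by Marcksl1 (−1.40) and by Dclk1 (−1.07), a relative of Dcx. Neurod6 had log2 levels of 3.61, 3.31, 3.91 and 3.57 in COS and of 5.66, 4.71, 5.88 and 5.74 in CES, without overlap. Sox4 had levels of 2.76, 2.72, 2.70 and 1.81 in COS and of 0.91, 1.26, 1.12 and 0.31 in CES, also without overlap. Calb2, which newborn granule neurons carry for a short time, was not called (0.53, adjusted p = 0.0938 by limma) but was called higher in 5 of 23 alternatives, among them loess and Aquantile (0.88, adjusted p = 0.0398) and leaving out CES replicate 2 (0.75, adjusted p = 0.00847).

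Of 11 quantified genes of mature granule cells, 0 were called higher and 3 lower, with a median difference of −0.062. C1ql2, a synaptic protein of mossy fibres, had a difference of −1.23 and the cation channel gene Trpc6 one of −0.89. Tdo2, the remaining one, was well above background in no rat and is given without a fold. Calb1, the calcium-binding protein calbindin of mature granule cells, was not called (−0.28, adjusted p = 0.376 by limma). Rbfox3 had no spot of that name. After loess and Aquantile normalization C1ql2, Trpc6 and Tdo2 were not called and 1 gene of the list, Ahcyl2, was called higher (0.65).

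In the reelin pathway, the receptors Lrp8 (−0.19) and Vldlr (−0.25) and the adaptor Dab1 (−0.36) were not called, like Reln itself. Of 11 genes, 0 were called higher and 2 lower, Pafah1b1 (−1.25), the lissencephaly gene that acts on dynein, and the small GTPase gene Rap1a (−0.61). The list's median was −0.36, close to the −0.25 of all genes, and of the list only Pafah1b1 was called, as lower, after loess and Aquantile normalization. Of 12 quantified signals of the neurogenic niche, 0 were called higher and 5 lower, with a median of −0.42. Among them were the growth factors Bdnf (−1.48) and Fgf2 (−1.22) and the Wnt antagonist Sfrp1 (−1.17), whose call was lost in 13 of 23 alternatives and whose difference was −0.74 without COS replicate 2 (adjusted p = 0.0536 by limma). After loess and Aquantile normalization Bdnf and Fgf2 were called lower, and Wnt7a (0.81) of Wnt signalling was called higher, as was Gli1 of Hedgehog signalling, detected in 0 COS rats and 3 of 4 CES rats and given without a fold.

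**Figure D4:**
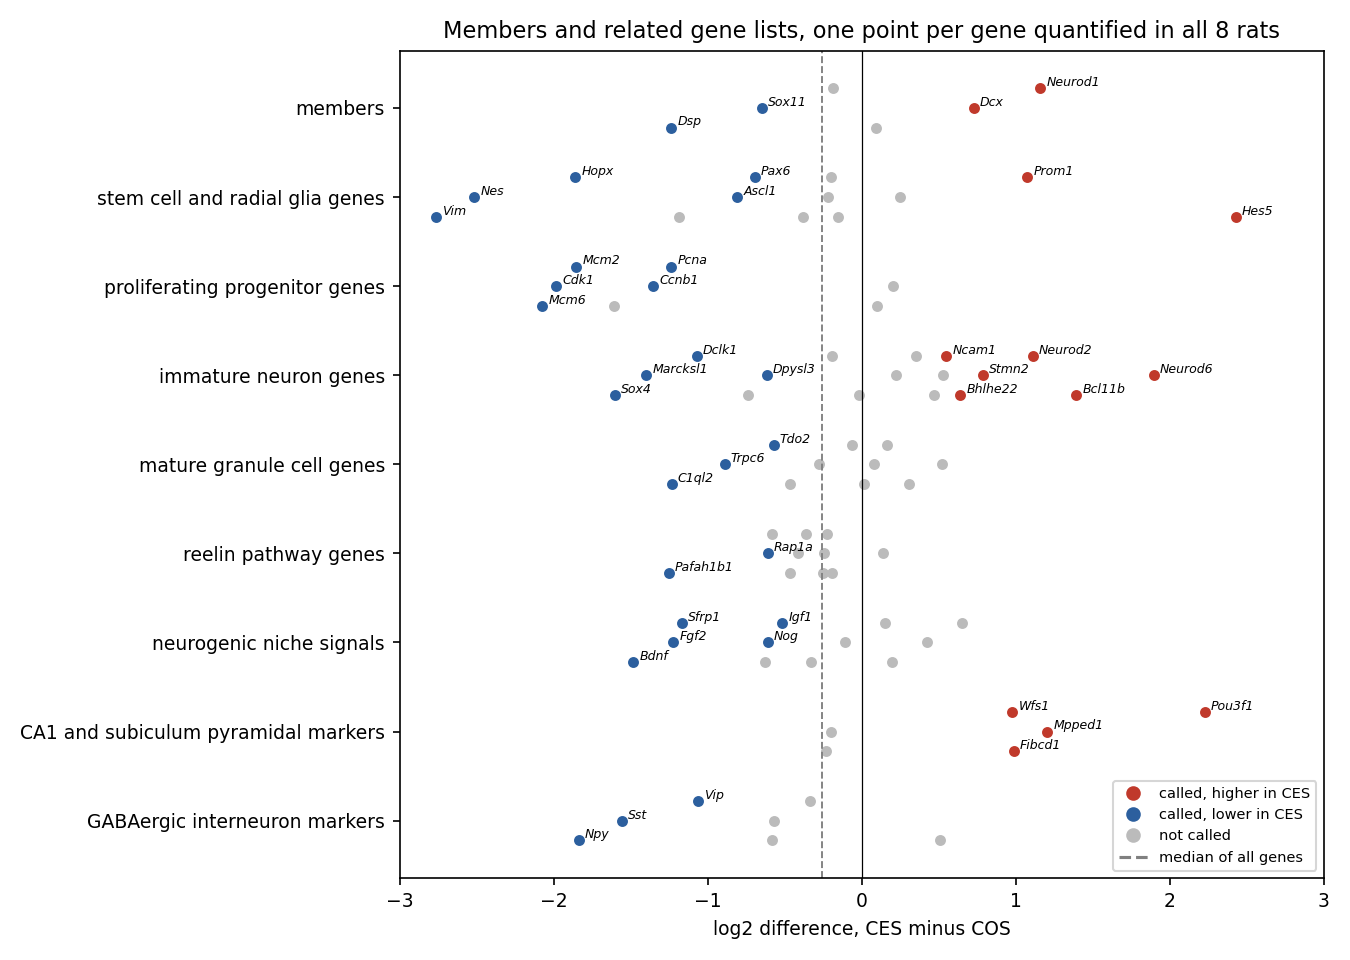
Log2 difference CES minus COS of every quantified gene of the members, the related lists and 2 marker lists, coloured by limma's call, with the median of all genes (−0.25) as a dashed line. The 5 called proliferation genes lie at or below −1.24, and Neurod1 and Dcx lie on the side of Neurod6, Bcl11b and the CA1 markers.

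The genes whose pattern over the 8 rats was closest to each fully detected member were sought among 8661 gene names, by the root mean square distance between log2 levels centred on each gene's mean. For Neurod1 they were Cacna1b (0.113) and Lhx9 (0.116), for Dcx Neurl2 (0.0929) and Limd2 (0.110), for Sox2 Fnbp1 (0.0868) and Slc29a1 (0.0967), and for Reln Setd2 (0.0653) and Higd1a (0.0676). Among the members, the closest pairs were Sox2 with Reln (0.225) and Neurod1 with Dcx (0.263), and the farthest was Neurod1 with Dsp (1.29).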

How the data were processed

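Total RNA from the DG of 8 rats was labeled with Cy3 or Cy5, and 2 rats of the same group shared each of 4 arrays on 1 slide, so the array is nested in the group. Cy3 was used for replicates 1 and 3 and Cy5 for replicates 2 and 4. The authors deposited scanner files with the intensity of each spot and its local background, written by Agilent Feature Extraction 10.7.3.1 according to the submitters' processing notes, and a table of log2 values that equals the log2 of median signal minus background up to a constant per channel. Both rats of an array have the same scanner file, and each was read from its own dye's columns.

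The RefSeq accession gave the gene name for 17512 of 41012 probes (RefSeq table of a later rat assembly), and the others kept the name in the files. Following the study's methods, a spot was valid where its foreground was at least 2 times background, and it entered where this held in all 8 rats. From each mean signal the background median was subtracted, and the result was expressed relative to the median valid spot of its channel, averaged per gene and converted to log2. Valid were 74.6–88.9% of non-control spots in COS and 70.7–81.5% in CES rats. The number of arrays limits the precision, and the median SE of a difference was 0.197 on the log2 scale. No spot was saturated, and spots marked as outliers (1593 in any channel) were kept. The authors' iterative renormalization needs the groups without SE and was left out.

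The groups were compared with limma 3.58.1 (R 4.3.3), two-sided, with the dye as a fixed term, the array as a random block (duplicateCorrelation, statmod 1.5.0; consensus correlation −0.00653) and Benjamini-Hochberg adjustment over all genes. Ratios of members were compared by exact permutation tests. Same-numbered rats of both groups deviated together (r = 0.317, 0.209, 0.295 and 0.336), but the numbers 1 and 3, and 2 and 4, share a dye, and with the dye removed r was −0.0648 or −0.0389. Nothing says that a number marks a litter or a day. Files were read in R with fread (data.table, version 1.17.8), and figures were drawn with matplotlib 3.10.9, pandas 2.3.3 and numpy 2.4.6 under Python 3.11.15.

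The members, gene lists and alternatives were chosen with earlier results of these data known. Named are all members, of each list at most 3 genes called in each direction by size of the difference, genes that define a stage (Nes, Mki67, Calb1, Calb2, Rbfox3, Lrp8, Vldlr and Dab1), and for each member detected in all rats the 2 genes closest in pattern. Markers, Ccnb1, Pcna, Ccnd2, Ahcyl2, Gli1 and Wnt7a were named after their values were seen. Of the marker lists not described with the results, mossy cell (2 genes quantified), choroid plexus (5) and oligodendrocyte (5) markers had 0 called in either direction, and 1 mossy cell marker, Calb2, was called higher after loess and Aquantile normalization. The alternatives were normexp with an offset of 50, the scanner software's processed intensity, loess and Aquantile normalization, quantile normalization, scaling on the spots valid in all rats, no filter, a foreground of at least 3 times background, spots well above background in all rats, leaving out spots marked as outliers, the brightest probe, the deposited log2 table, fits without the array block, without the dye term and with a replicate block, the methods' t-test (heteroscedastic; the correction for redundant spots and the fold cut-off of the methods were not applied) and leaving out each rat.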

Additional observations from a re-analysis of the deposited data

Results flagged for a closer look

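In a search of 66 groups of 4 rats (members and named list genes, by Dixon's test at 0.829, which chance passes in about 1 in 20 groups), 2 values stood apart from the other 3 of their group. The log2 level of Sox4 in COS replicate 4 was 1.81, against 2.70 to 2.76 in the other COS rats. The log2 level of Vim in CES replicate 2 was 7.05, against 3.58 to 3.88 in the other CES rats and 7.25 to 7.48 in COS.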

How the results depend on the processing

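With 1238 genes higher and 6054 lower in CES as reported, normexp gave 126 and 461, loess with Aquantile 3044 and 1896, quantile normalization 3059 and 2226, scaling on the spots valid in all rats 3352 and 1720, the log2 values as deposited 3285 and 1936, spots well above background in all rats 2227 and 880, no filter 654 higher, and a foreground minimum of 3 times background 2835 lower. The methods' t-test gave 6114 genes at an unadjusted p under 0.05, against 9657 by limma, and Neurod1 and Dsp of the 6 members. With a Benjamini-Hochberg adjustment over all genes, which the methods do not make, it gave 0. Leaving out each rat gave 262 to 1860 higher and 932 to 7029 lower, both lowest without COS replicate 3.

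Members called higher numbered 2 as reported, 0 after normexp and in the t-test so adjusted, 1 to 2 with a rat left out, and 2 otherwise. Members called lower numbered 2 as reported, 1 after loess with Aquantile, after quantile normalization, without the filter and without the dye term, 0 after normexp, after scaling on the spots valid in all rats, with a foreground minimum of 3 times background, with spots well above background in all rats (Sox11 and Dsp then drop out of the genes tested), in the deposited log2 table and in the t-test so adjusted, and 0 to 2 with a rat left out. With the replicate number as a block, 1077 genes were higher and 6147 lower, and no call of a member changed.

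Signs turned only for genes that were not called. Sox2 was −0.25 with the processed signal. After loess with Aquantile, quantile normalization and scaling on the spots valid in all rats, Reln was 0.15, 0.14 and 0.21, Calb1 0.083, 0.076 and 0.12, Lrp8 0.11, 0.14 and 0.21, and Vldlr 0.13, 0.13 and 0.15, and Dab1 was 0.037 in the last. With spots well above background in all rats, Reln was 0.26, Calb1 0.17, Vldlr 0.20 and Dab1 0.087, and in the deposited log2 table Reln was 0.18, Calb1 0.087, Lrp8 0.22, Vldlr 0.12 and Dab1 0.024. Scaling on the spots valid in all rats only changes the constant that divides each channel, so it moved the differences of all genes by the same amount. The median of all genes was −0.25 as reported and 0.145 with that scaling. The cause of the other moves was not tested. Signal over background limits Prox1, Tbr1, Sox11 and Dsp, which were not well above background in all rats.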
